A study of Mus musculus with 19 samples.

Results

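The genes described here encode the subunits of mitochondrial oxidative phosphorylation, together with the complex I assembly factors that share the same gene symbols. A gene was taken when its array symbol began with Nduf followed by a, b, c, s or v, with Uqcr, with Cox followed by a digit of 4 to 8, or with Atp5, or when it was Cyc1, Sdha, Sdhb, Sdhc or Sdhd. Probe sets had to name a single gene, and the brightest probe set over all 19 arrays stood for each gene. This gave 90 of the 19938 genes on the array. They fall into 74 subunits found in every tissue, of which 34 belong to complex I, 4 to complex II, 9 to complex III, 10 to complex IV and 17 to complex V. The other members are the 7 complex I assembly factors Ndufaf1 to Ndufaf7, the supercomplex factor Cox7a2l, and 8 tissue-restricted isoforms or relatives of complex IV subunits (Cox4i2, Cox6a2, Cox6b2, Cox7a1, Cox7b2, Cox8b, Cox8c and Ndufa4l2). Ndufa4 and Ndufa4l2 were counted with complex IV, where the Ndufa4 protein is now placed. Of the 90 genes, 17 had more than 1 probe set.

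Mouse CD8 T cells were purified, and 0.125 µg of their RNA was used for each Affymetrix gene array. Naive TCRP1A cells (n = 4) carried a transgenic T-cell receptor and lacked Rag-1 on a B10.D2 background, as did the TCRP1A cells of every group below. Stat5ca effector cells (n = 2) were GFP+ by their label, had met their antigen for 72 h and carried Stat5ca, known as a constitutively active form of the transcription factor Stat5. Control effector cells (n = 4) had met the antigen for 72 h. T-betKO Stat5ca cells (n = 3) lacked T-bet, were stimulated with antibodies to CD3 and CD28, received Stat5ca after 24 h, and were recovered from spleen and lymph nodes of congenic hosts on days 14, 14 and 54. Both C57BL/6 and B10.D2 appear in their labels, and their RNA had another labelling protocol, so genotype, stimulus, strain and labelling cannot be told apart. TCRP1A Stat5ca cells (n = 4) were recovered after transfer on day 20, and transferred TCRP1A control cells (n = 2) on days 18 and 120. Both of these groups, and the T-betKO Stat5ca cells, had been activated for 72 h before they were transferred. The day of recovery therefore differs between the control arrays, and the labels name no transduction for any control group. Separate animals or cultures are not named for the arrays of any group. P-values therefore reflect only how these arrays vary, and that variation may be technical.

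Oxidative phosphorylation passes electrons from NADH through complex I, and from succinate through complex II, to ubiquinone, complex III, cytochrome c and complex IV, where oxygen is reduced. Complexes I, III and IV pump protons across the inner mitochondrial membrane, and complex V, the ATP synthase, uses the return flow to make ATP. Naive and memory T cells are known to live mostly on this route, while activated T cells add aerobic glycolysis and enlarge their mitochondria. A few subunits of complexes I, III, IV and V are encoded by mitochondrial DNA and were not analysed here.

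Promoters of nuclear genes for these complexes are known to hold sites of the factors NRF1, GABPA and YY1. RefSeq promoter windows of GRCm38.p6, reaching from 250 bases before the annotated start to 50 bases after it, were at hand for 73 of the 90 genes and for 15563 genes of the array. Each window was searched on both strands for an NRF1 motif and a YY1 motif of 10 letters each, and for the GABPA letters CCGGAAG. The NRF1 motif was found for 24.7% of the oxidative phosphorylation genes and for 7.87% of all genes. GABPA letters were found for 24.7% and 13.6%, and the YY1 motif for 6.85% and 1.49%. At least 1 of the 3 motifs was present for 47.95% of the oxidative phosphorylation genes, against 20.72% of all genes. Median GC content of the windows was 58.0% and 57.7%, but the median count of CG (C followed by G) was 19.5 and 15. All 3 motifs contain CG, and the part of this count in their higher shares was not tested. For 2 further motifs, TCAAGGTCA (ESRRA) was found for 2.74% and 0.35%, and CACGTG (MYC) for 8.22% and 9.52%. These are matches of letters, not measured binding.

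The windows of 5 genes are printed 5′ to 3′ along the gene, with matches on either strand in capitals. They were chosen after the values were seen. All lie on the minus strand. Sdha (chr13:74350191-74350490) and Sdhd (chr9:50603800-50604099) belong to the same complex and had unlike differences below, Atp5md (chr19:47090598-47090897) and Cox6a1 (chr5:115348909-115349208) were among the genes with the largest differences, and Ndufs6 (chr13:73328433-73328732) holds an NRF1 and a YY1 match.
Sdha: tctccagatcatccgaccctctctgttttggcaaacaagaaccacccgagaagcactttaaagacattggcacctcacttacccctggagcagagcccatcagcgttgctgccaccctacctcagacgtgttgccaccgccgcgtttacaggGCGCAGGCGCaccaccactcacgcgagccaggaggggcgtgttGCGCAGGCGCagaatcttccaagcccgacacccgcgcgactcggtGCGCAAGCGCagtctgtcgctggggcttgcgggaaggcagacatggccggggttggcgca
Sdhd: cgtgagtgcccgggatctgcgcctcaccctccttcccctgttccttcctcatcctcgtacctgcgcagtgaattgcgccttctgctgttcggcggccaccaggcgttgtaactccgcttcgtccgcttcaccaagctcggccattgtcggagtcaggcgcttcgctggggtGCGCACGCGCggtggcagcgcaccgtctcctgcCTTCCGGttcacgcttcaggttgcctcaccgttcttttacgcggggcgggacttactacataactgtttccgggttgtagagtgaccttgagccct
Atp5md: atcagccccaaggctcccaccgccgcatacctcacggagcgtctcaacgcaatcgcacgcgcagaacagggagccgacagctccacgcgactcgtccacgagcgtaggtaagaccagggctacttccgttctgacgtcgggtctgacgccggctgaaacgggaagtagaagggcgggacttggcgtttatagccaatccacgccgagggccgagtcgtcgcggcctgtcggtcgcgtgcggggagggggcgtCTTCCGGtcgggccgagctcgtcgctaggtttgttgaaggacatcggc
Cox6a1: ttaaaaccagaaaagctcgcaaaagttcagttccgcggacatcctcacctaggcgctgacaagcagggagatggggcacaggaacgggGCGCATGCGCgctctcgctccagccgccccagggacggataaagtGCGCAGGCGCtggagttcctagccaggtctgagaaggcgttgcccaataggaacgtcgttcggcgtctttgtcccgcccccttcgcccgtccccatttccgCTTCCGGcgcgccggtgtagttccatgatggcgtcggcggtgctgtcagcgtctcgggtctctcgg
Ndufs6: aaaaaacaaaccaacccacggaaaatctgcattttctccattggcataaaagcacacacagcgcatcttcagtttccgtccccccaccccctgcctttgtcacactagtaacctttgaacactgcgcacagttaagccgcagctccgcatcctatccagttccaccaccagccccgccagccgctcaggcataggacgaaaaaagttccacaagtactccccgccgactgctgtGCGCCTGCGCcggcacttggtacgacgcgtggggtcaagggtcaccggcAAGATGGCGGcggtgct
Sdha held 3 NRF1 matches and Cox6a1 held 2, while Atp5md held only GABPA letters. Between 72 h control cells and naive cells, the median log2 difference was 0.61 for the 35 genes with any of the 3 motifs and 0.63 for the 38 genes without. After transfer, the median Stat5ca difference was 0.58 with a motif and 0.36 without, and no test was made of this. The tissue-restricted isoforms with a window (Cox6b2, Cox7a1, Cox7b2 and Cox8b) were all without a motif, and none was called higher after transfer. The split is therefore partly one of gene class.

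Values are log2 signals as deposited. Genes that T cells should not express were represented by 1196 olfactory and vomeronasal receptors, whose 95th percentile was 7.30. Group means of 85 to 88 of the 90 genes lay above it. The exceptions were Cox7b2 in every group, with Cox7a1, Cox8b, Ndufa4l2, Ndufaf5 and Ndufaf6 in some, so these values carry little information on level. As label checks, Stat5a averaged 12.06 in Stat5ca cells and 10.56 in control cells at 72 h, and 11.68 and 10.25 after transfer. It averaged 10.93 in T-betKO Stat5ca cells, so the transferred Stat5ca groups differed in Stat5a signal. Tbx21, which encodes T-bet, averaged 8.24 in T-betKO Stat5ca cells and 11.83 in TCRP1A Stat5ca cells. The 11 measured T-cell identity markers were all above 7.30 in all 6 groups. The mean of 17 macrophage and monocyte markers was not even, at 8.46 and 9.44 on naive arrays 33 and 35 but 12.13 and 11.97 on naive arrays 34 and 36, 7.38 and 7.35 in Stat5ca cells at 72 h, 8.70 to 9.47 in control cells at 72 h, 11.07 to 12.66 in T-betKO Stat5ca cells, 10.13 to 10.97 in transferred Stat5ca cells and 12.64 and 12.75 in transferred controls. At 72 h, 10 of these markers were at or below 7.30 in Stat5ca cells, among them Adgre1, Csf1r and Lyz2. The mean of 5 neutrophil markers ran from 7.03 to 12.76 in naive cells and was 11.75 and 11.81 in transferred controls. In these purified but bulk samples, fewer cells of a type and less RNA per cell cannot be told apart. Arrays of a group also resembled each other in pairs, for example control arrays 1 and 4 against 2 and 3.

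The average of the 74 ubiquitous subunits was lowest in naive cells and in transferred controls, and highest in control cells at 72 h. By array it was 10.50, 10.75, 10.79 and 10.58 in naive cells, 11.14 and 11.16 in Stat5ca cells at 72 h, 11.30, 11.34, 11.27 and 11.32 in control cells at 72 h, 11.03, 10.93 and 10.73 in T-betKO Stat5ca cells, 11.06, 11.13, 11.11 and 11.17 in transferred Stat5ca cells, and 10.66 and 10.61 in transferred controls. Transferred Stat5ca cells thus lay close to Stat5ca cells at 72 h and below control cells at 72 h, while the 2 transferred controls lay within the range of naive cells. Day 54 gave the lowest of the T-betKO arrays. The spread within a group was widest in naive cells (SD 0.14) and T-betKO Stat5ca cells (SD 0.15).

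**Figure D1:**
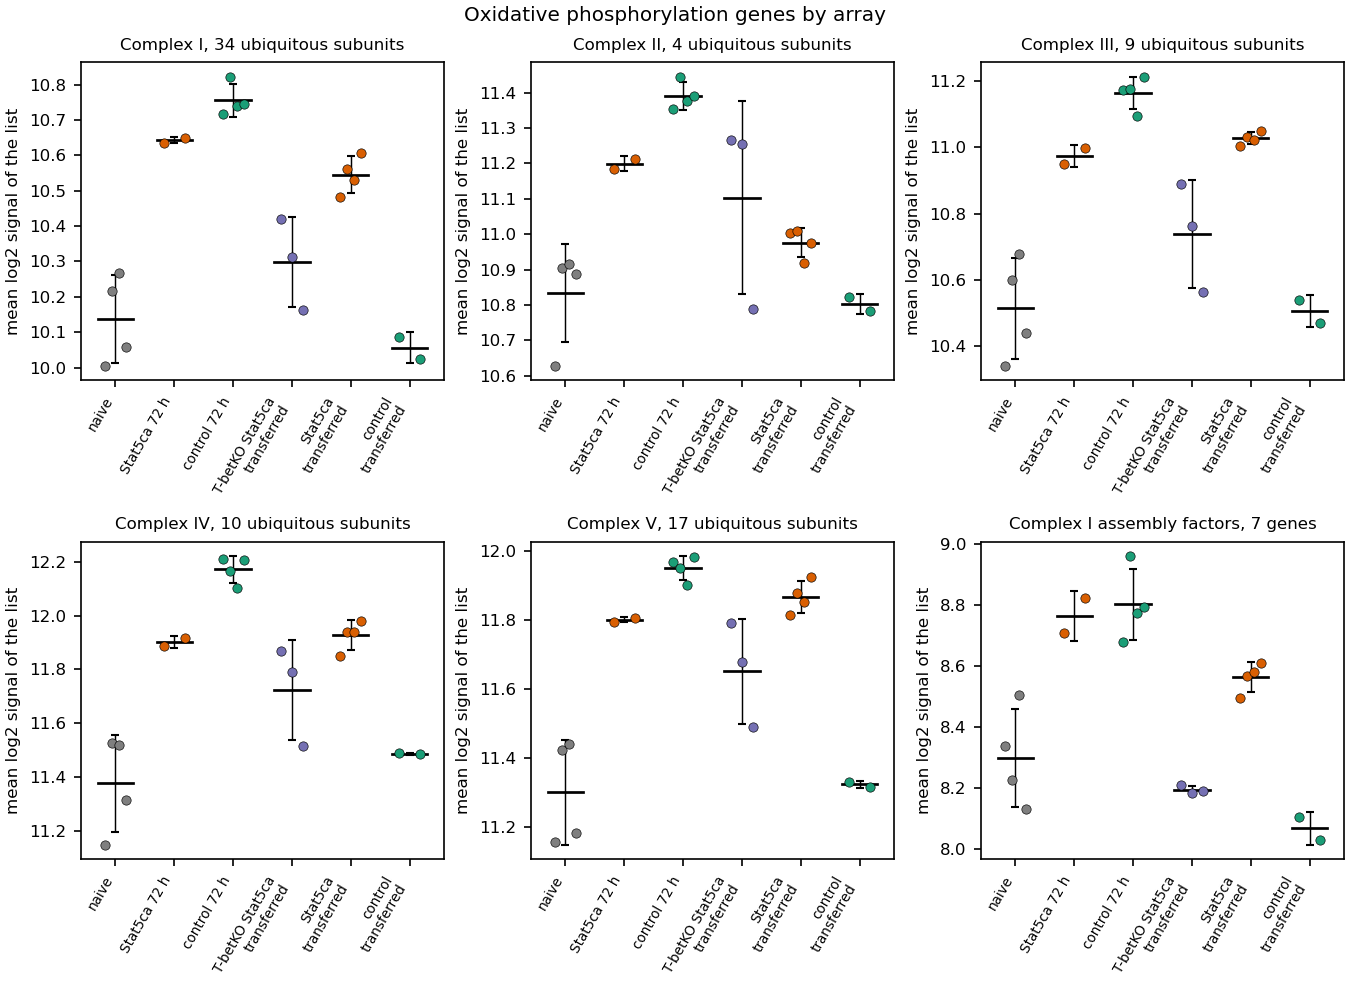
Mean log2 signal of the ubiquitous subunits of each complex, and of the 7 complex I assembly factors, on each of the 19 arrays. Points are arrays, horizontal lines are group means and error bars are SD. Transferred Stat5ca cells lie above transferred controls in all 6 panels, and the y axes do not start at 0.

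The 5 complexes did not keep the same distances. Complex II averaged 11.39 ± 0.04 in control cells at 72 h (SD, n = 4) and 10.83 ± 0.14 in naive cells (n = 4), but only 10.98 ± 0.04 in transferred Stat5ca cells (n = 4) and 10.80 ± 0.03 in transferred controls (n = 2). Complex III averaged 11.03 ± 0.02 in transferred Stat5ca cells, and its 4 arrays were close together. It averaged 10.97 ± 0.03 in Stat5ca cells at 72 h, just below.

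**Figure D2:**
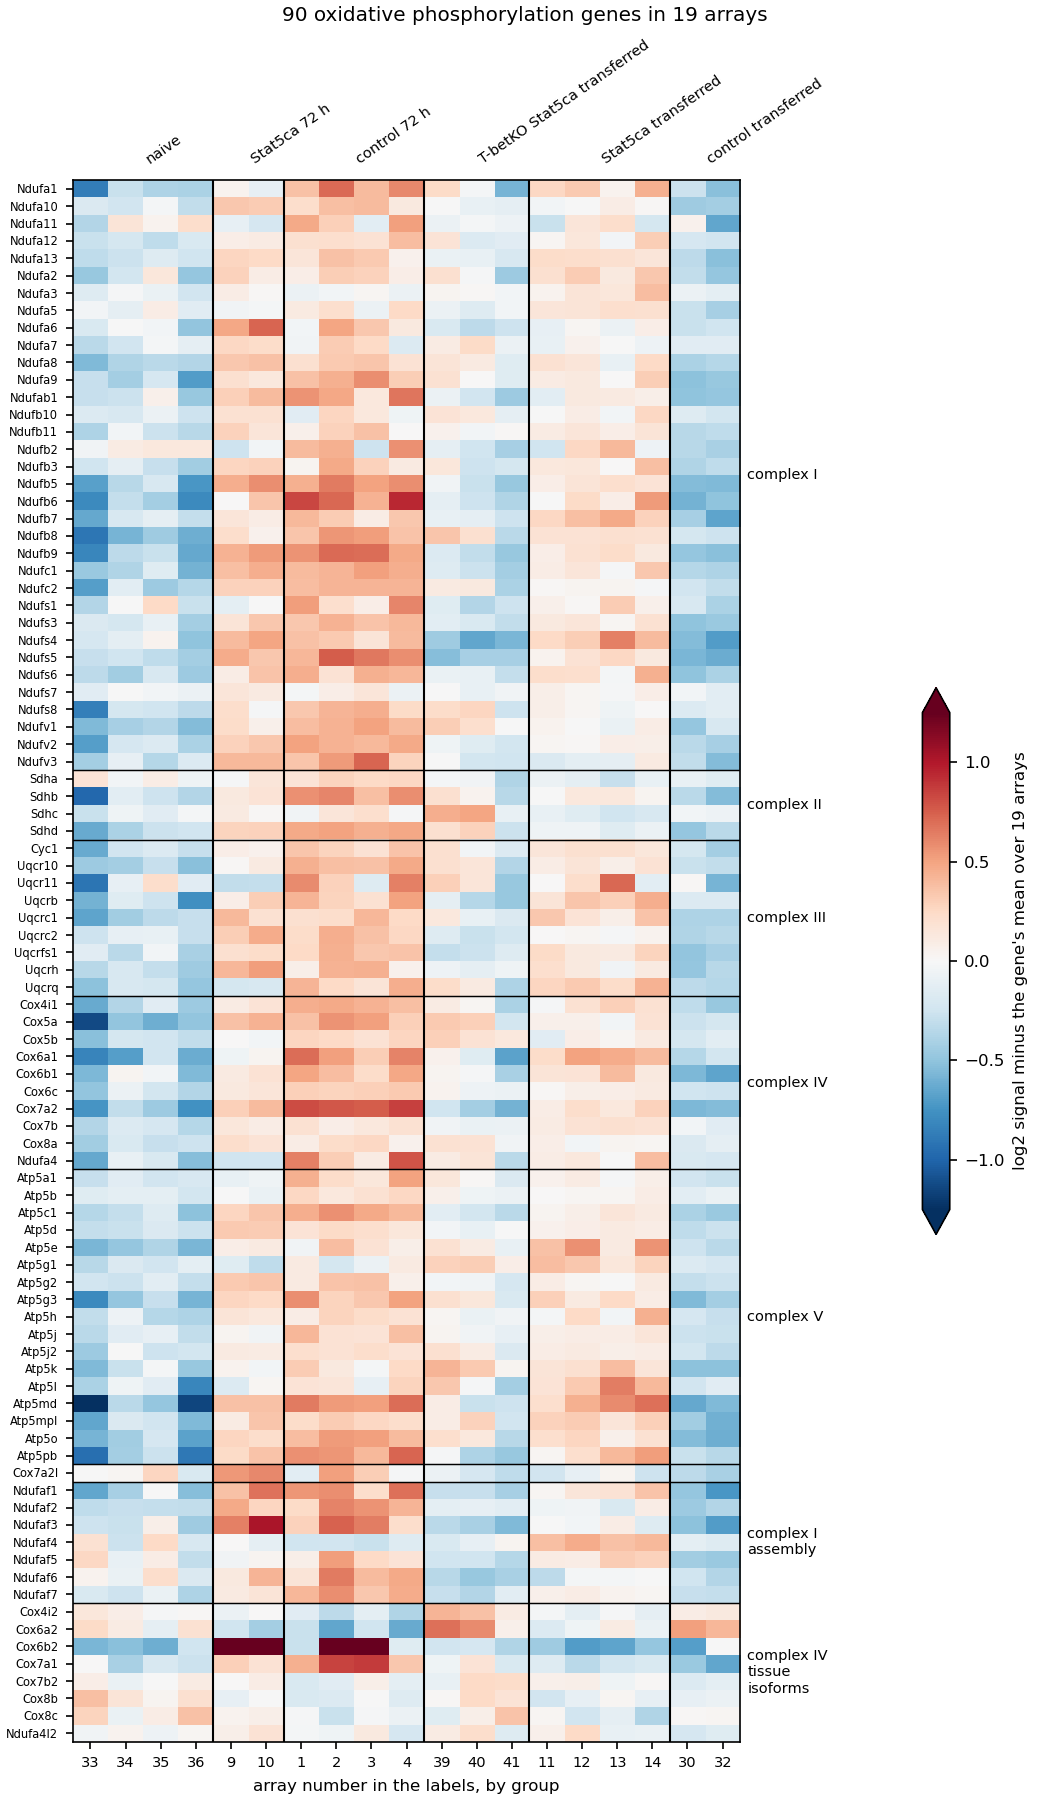
Log2 signal of each of the 90 genes (rows, by complex and class) on each of the 19 arrays (columns, by group), minus the gene's mean over the 19 arrays. Red is above and blue below that mean, the colour scale is clipped, and most ubiquitous subunits are red in both 72 h groups and in transferred Stat5ca cells.

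The first comparison asked what 72 h with antigen changed. Control cells at 72 h were higher than naive cells for 73 of the 90 genes and lower for 3, with a median log2 difference of 0.58. Over all genes 22.0% were called higher and 24.9% lower (46.8% in either direction), with a median of -0.09. Among bright genes 32.1% were called higher and 24.0% lower, with a median of 0.01. Calls here and below are from limma fitted over all 19938 genes, at a Benjamini-Hochberg adjusted p under 0.05. The rise covered 28 of 34 subunits of complex I, all 4 of complex II, 8 of 9 of complex III, all 10 of complex IV and 16 of 17 of complex V. None of these 74 subunits was called lower, and none was lower at an unadjusted p under 0.05.

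Atp5md, a small membrane subunit of the ATP synthase, had the largest difference. Its log2 signal was 12.30, 12.19, 12.16 and 12.35 in control cells at 72 h, against 10.19, 11.32, 11.17 and 10.51 in naive cells, so the groups did not overlap. The difference was 1.45 ± 0.19 (SE, adjusted p = 2.58e-05), or 2.74-fold. Cox7a2, the common form of a small complex IV subunit, followed at 1.36 ± 0.09 (adjusted p = 2.80e-08), with 11.69 to 11.79 in control cells at 72 h and 10.18 to 10.63 in naive cells. Ndufb6, an accessory subunit in the membrane arm of complex I, differed by 1.31 ± 0.15 (adjusted p = 5.14e-06). Naive arrays 33 and 36 were the lowest for all 3 genes, which adds to the naive spread.

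Within complex II the 4 subunits split. Sdhb, the iron-sulfur subunit, rose by 0.97 ± 0.14 on the log2 scale (adjusted p = 5.52e-05), and Sdhd, a membrane anchor, by 0.86 ± 0.08 (adjusted p = 5.72e-07). Sdha, the flavoprotein that oxidises succinate, had 11.70, 11.80, 11.77 and 11.79 in control cells at 72 h, against 11.69, 11.49, 11.62 and 11.47 in naive cells. These groups are close, and the difference of Sdha was 0.20 ± 0.07 (adjusted p = 0.0369). Sdhc, the other membrane anchor, also differed by 0.20 ± 0.08 (adjusted p = 0.0449), with overlapping arrays. Both small calls were lost in several fits, Sdha without control array 2, 3 or 4 or naive array 34 or 36 (adjusted p = 0.0596 to 0.106), and Sdhc without control array 2 or 3 or naive array 33 or 35 (adjusted p = 0.0718 to 0.135).

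Core subunits of complex I also differed among themselves. Ndufv1, which binds NADH, rose by 0.90, Ndufv2 by 0.82 and Ndufs8 by 0.77, while Ndufs7, which holds the iron-sulfur cluster next to ubiquinone, differed by only 0.10 ± 0.06 (adjusted p = 0.231). In complex III, cytochrome c1 (Cyc1) rose by 0.62, the core protein genes Uqcrc1 and Uqcrc2 by 0.70 and 0.51, and the Rieske protein gene Uqcrfs1 by 0.58. In complex V the catalytic genes Atp5a1 and Atp5b rose by 0.55 and 0.37, and Atp5o of the stalk by 0.93. Among assembly factors, 5 of 7 rose, with Ndufaf1 at 0.91 ± 0.14 (adjusted p = 8.59e-05), and Ndufaf4 differed by -0.22 without passing the test.

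The tissue isoforms went their own ways. Cox6a2, the muscle form of a complex IV subunit, was at 8.77, 8.40, 8.80 and 8.42 in control cells at 72 h, against 9.29, 9.15, 8.94 and 9.24 in naive cells. It fell by 0.55 on the log2 scale (SE 0.11, adjusted p = 0.000765), while its common counterpart Cox6a1 rose by 1.13 ± 0.12. Cox4i2, the lung-type form of subunit IV, fell by 0.30 and Cox8b, a muscle form, by 0.32. Cox8b was near 7.30, and counted from that level its difference was only -0.14. Cox7a1, another muscle form, rose by 0.84 but averaged 7.23 in naive cells, below 7.30, and counted from that level by 0.78. Cox6b2, a form known from testis, had 7.77 and 7.90 on control arrays 1 and 4 but 9.42 and 9.30 on control arrays 2 and 3, against 7.44 to 7.81 in naive cells. Its difference was 1.03 ± 0.31 (adjusted p = 0.0147), and 0.76 without control array 2 (adjusted p = 0.0525).

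The macrophage marker mean was 8.70 to 9.47 in control cells at 72 h and 8.46 to 12.13 in naive cells, with 7 of 17 markers lower. Without naive arrays 34 and 36, which carried the high marker values, 68 genes were called higher and 4 lower. NK cell markers were called lower at 72 h for 3 of 3 genes and B cell markers for 5 of 9. All 5 neutrophil markers had negative differences, with a median of -2.04, though none was called. The part of these other markers in the result was not tested.

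**Figure D3:**
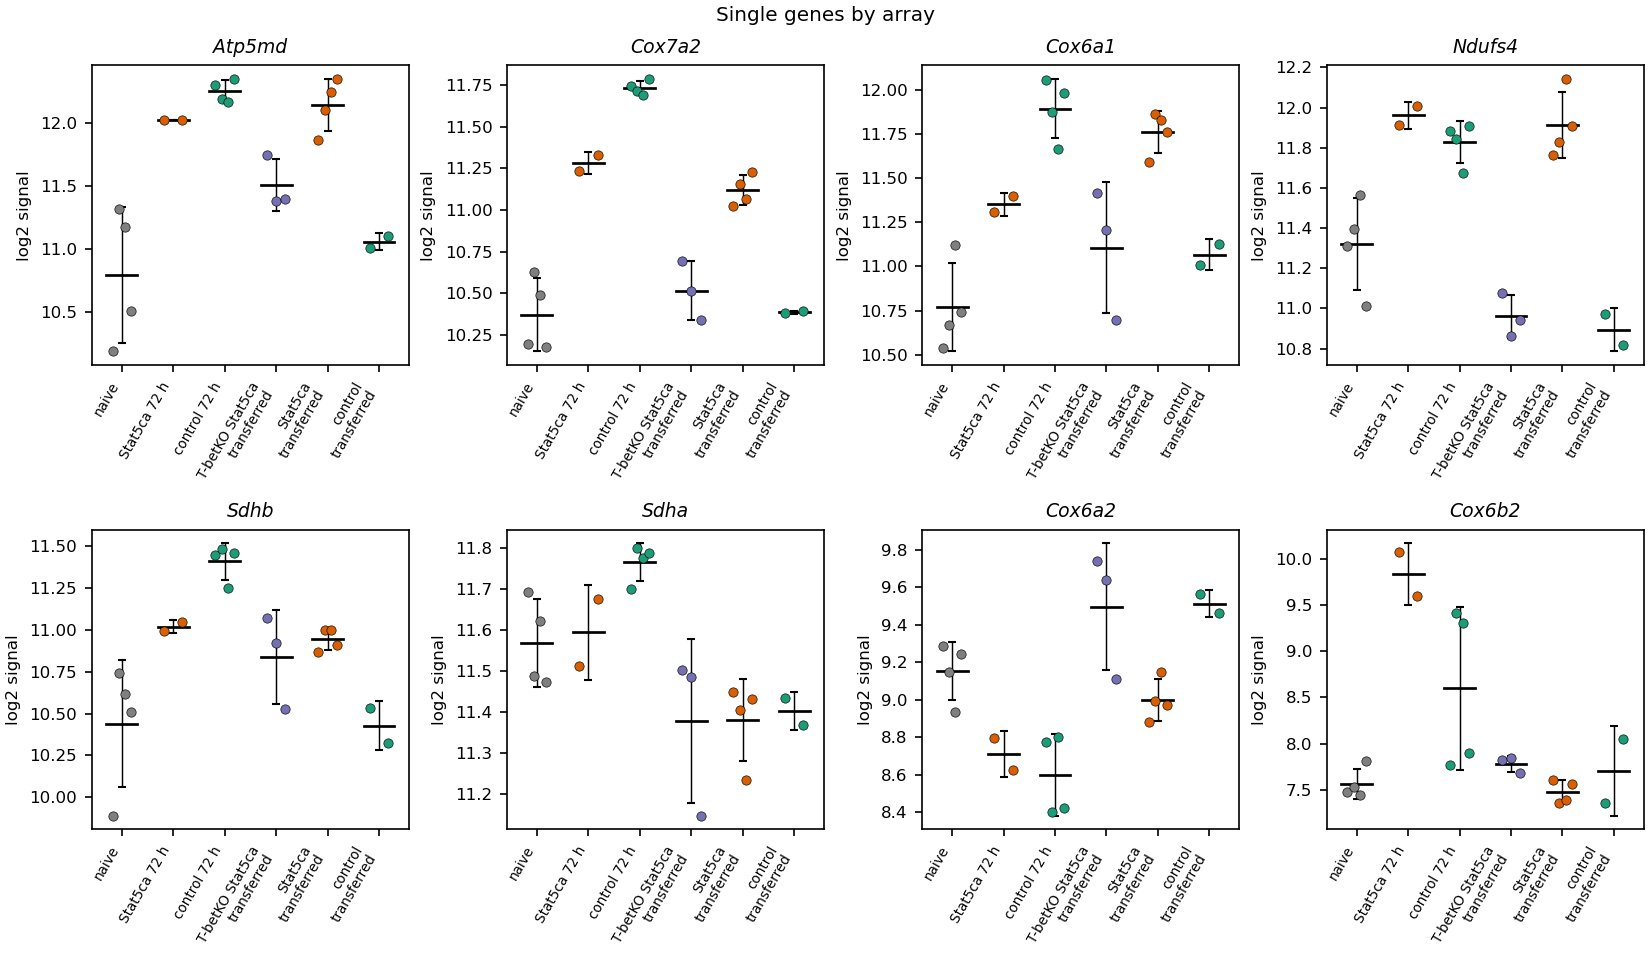
Log2 signal of 8 single genes on the 19 arrays. Points are arrays, horizontal lines are group means and error bars are SD. Atp5md, Cox7a2 and Cox6a1 are low in naive cells and transferred controls, Sdha stays within 11.15 and 11.80 throughout, and Cox6a2 is lower in control cells at 72 h than in naive cells where Cox6a1 is higher.

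Stat5ca cells and control cells were first compared at 72 h. No gene of the set was called higher in Stat5ca cells, and 7 were lower, with a median log2 difference of -0.14. At an unadjusted p under 0.05, 5 were higher and 20 lower, and the share of all genes at that threshold is not given here. With array weights 5 genes of the set were called higher and 22 lower. Without control array 2 the counts were 2 and 6, and without control array 3 they were 1 and 12. Calls over all 19938 genes moved too, from 1140 to 4604 with array weights. They were 1166 without control array 2 and 1794 without control array 3. In the fit with 7 calls, 2.37% of all genes were called higher and 3.35% lower (5.72% in either direction), with a median of 0.04. Among bright genes 3.12% were called higher and 4.88% lower, with a median of 0.02. The 7 genes were Ndufa4, Cox6a1 and Cox7a2 of complex IV, Uqcrq and Uqcr10 of complex III, and Atp5a1 and Atp5b of complex V.

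Ndufa4 had 9.73 and 9.74 in Stat5ca cells, against 10.61, 10.29, 10.08 and 10.77 in control cells. The difference was -0.70 ± 0.18 (adjusted p = 0.0354). Uqcrq, a small subunit near the ubiquinone site of complex III, had 9.95 and 9.97 in Stat5ca cells and 10.59, 10.41, 10.33 and 10.62 in control cells, a difference of -0.53 ± 0.11 (adjusted p = 0.0118). Both genes were tight in Stat5ca cells and lay below every control array. The catalytic Atp5b fell by 0.25 (adjusted p = 0.0494). The other differences were -0.54 for Cox6a1, -0.45 for Cox7a2, -0.40 for Atp5a1 and -0.35 for Uqcr10. None of the 7 calls held without Stat5ca array 9 or without array 10, each of which leaves a single Stat5ca array, and 1 was left without control array 1 or without control array 4. Cox6b2 was higher on both Stat5ca arrays (10.07 and 9.60) than on any control array, but its difference of 1.24 ± 0.38 did not pass (adjusted p = 0.0730). All 17 macrophage markers had negative differences here, 3 of them called, and with their mean as a covariate 5 genes of the set were called lower.

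Control cells after transfer were then compared with control cells at 72 h. Here 73 genes were lower and 2 higher in transferred cells, with a median log2 difference of -0.66. Over all genes 24.4% were called lower and 13.1% higher (37.5% in either direction), with a median of -0.04. Among bright genes 35.05% were called lower and 16.3% higher, with a median of -0.11. This comparison uses the same 72 h control arrays as the comparison with naive cells, so opposite signs in the 2 comparisons are not independent. Lower calls covered 29 of 34 subunits of complex I, 3 of 4 of complex II, 8 of 9 of complex III, all 10 of complex IV and 15 of 17 of complex V.

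Cox7a2 had 10.38 and 10.39 in transferred controls, against 11.75, 11.71, 11.69 and 11.79 in control cells at 72 h. It fell by 1.35 on the log2 scale (SE 0.11, adjusted p = 4.11e-07), with a wide gap between the groups. Ndufb6 fell by 1.28 (adjusted p = 4.82e-05), and Ndufs5, an accessory subunit of complex I, by 1.20 (adjusted p = 2.73e-07). Ndufs5 was at 8.25 and 8.20 in transferred controls and between 9.24 and 9.57 at 72 h. The 2 genes called higher were tissue isoforms, Cox6a2 at 0.91 ± 0.13 (adjusted p = 6.05e-05) and Cox4i2 at 0.35 ± 0.09 (adjusted p = 0.00451). Sdhc again differed little, by -0.12 ± 0.09 (adjusted p = 0.359), whereas Sdhd fell by 0.89. Macrophage markers averaged 12.64 and 12.75 in transferred controls and 8.70 to 9.47 at 72 h. T-cell identity markers were called lower for 8 of 11, with a median log2 difference of -0.66, the same as that of the set. Markers of other cells were also called higher in transferred controls, for 16 of 17 macrophage, 3 of 3 NK cell, 3 of 5 neutrophil, 4 of 9 B cell and 2 of 4 erythroid genes. The erythroid mean was 8.22 on control array 30 and 11.38 on control array 32, against 7.43 to 7.66 at 72 h. The part of the T-cell, NK, neutrophil, B cell and erythroid markers in the result was not tested. With the macrophage mean as a covariate, 58 genes were called lower and 2 higher.

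Few genes of the set separated transferred controls from naive cells. Of the 90 genes, 1 was called higher and 2 lower, against 7.94% and 9.81% of all genes (17.7% in either direction). The median log2 difference was -0.04, and -0.12 over all genes. Ndufb8, an accessory membrane-arm subunit of complex I, had 9.82 and 9.79 in transferred controls and 9.14 to 9.60 in naive cells, a difference of 0.39 ± 0.11 (adjusted p = 0.0230). Ndufs4, an accessory subunit of the NADH-binding arm of complex I, was lower by 0.43 (adjusted p = 0.0417), and Ndufa5 by 0.29 (adjusted p = 0.0439). At an unadjusted p under 0.05, 4 genes were higher and 12 lower in limma. The share of all genes at that threshold is not given here, but 17.7% passed the adjusted one. None of the 3 calls held without control array 30 or without array 32, and 11 genes were called without naive arrays 34 and 36. Without those naive arrays 5767 of all 19938 genes were called, against 3538 with all naive arrays. With the macrophage mean as a covariate no call was left in the set, beside 5 of 17 macrophage markers higher and 10 of 11 T-cell markers lower in transferred controls. A p that misses the threshold does not show equal levels, and the standard errors of 0.09 to 0.14 for these 3 genes set the precision.

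Stat5ca cells after transfer had higher signals for most of these genes than transferred controls. They were higher for 62 of the 90 genes and lower for 1, with a median log2 difference of 0.45. Over all genes 16.9% were called higher and 8.46% lower (25.4% in either direction), with a median of 0.08. Among bright genes 24.97% were called higher and 10.65% lower, with a median of 0.13. By complex, 24 of 34 subunits of complex I, 2 of 4 of complex II, 8 of 9 of complex III, 6 of 10 of complex IV and 16 of 17 of complex V rose, and none fell, nor did any at an unadjusted p under 0.05. Of the 7 assembly factors, 6 rose.

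Atp5md had 11.87, 12.10, 12.24 and 12.34 in transferred Stat5ca cells, against 11.01 and 11.10 in transferred controls. It differed by 1.08 ± 0.24 (adjusted p = 0.00371), or 2.12-fold. Ndufs4 had 11.77, 11.83, 12.14 and 11.91 in Stat5ca cells, against 10.97 and 10.82 in controls. Its difference of 1.02 ± 0.14 (adjusted p = 0.000153) put every Stat5ca array above both control arrays by more than the range within either group. Ndufb7, an accessory subunit of complex I, differed by 0.89 ± 0.13 (adjusted p = 0.000332). Cox6b1, which links the monomers of the complex IV dimer, differed by 0.82 ± 0.16 (adjusted p = 0.00163), and Cox6a1 by 0.70 ± 0.14 (adjusted p = 0.00248).

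Complex II was again uneven. Sdha had 11.45, 11.41, 11.23 and 11.43 in transferred Stat5ca cells, against 11.44 and 11.37 in transferred controls, a difference of -0.02 ± 0.09 (adjusted p = 0.890). Sdhc differed by -0.13 ± 0.09 (adjusted p = 0.379). Sdhd rose by 0.33 ± 0.10 (adjusted p = 0.0205) and Sdhb by 0.52 ± 0.17 (adjusted p = 0.0372), and these calls are weak. That of Sdhb was lost without any of the 6 arrays (adjusted p = 0.0507 to 0.262), and that of Sdhd without control array 30 (0.25, adjusted p = 0.213). The catalytic Atp5b differed by 0.15 ± 0.07 (adjusted p = 0.146), the only complex V subunit not called.

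Among the tissue isoforms none rose, and Cox6a2 fell by 0.51 (SE 0.13, adjusted p = 0.0101), with 8.88 to 9.15 in Stat5ca cells and 9.56 and 9.46 in controls. Its call was lost without control array 30 (-0.46, adjusted p = 0.0960). Across the whole set, 38 genes were called without control array 30 and 38 without array 32, since either leaves a single control array, and the median difference was then 0.47 and 0.41. Array 30 was of day 18 and array 32 of day 120, and all 4 Stat5ca arrays were of day 20. Macrophage markers were lower in Stat5ca cells for all 17 genes, 4 of them called, with array means of 10.13 to 10.97 against 12.64 and 12.75. Of 11 T-cell identity markers 9 were called higher, with a median log2 difference of 0.64, above the 0.45 of the set. All 5 neutrophil markers were lower on every Stat5ca array, with a median of -3.05, though none was called. Of 9 B cell markers 4 were called lower, and of 3 NK cell markers 1 was called higher. With the macrophage mean as a covariate, 54 genes were called higher and 1 lower. The part of the T-cell, neutrophil, B cell and NK cell marker differences in the result was not tested.

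**Figure D4:**
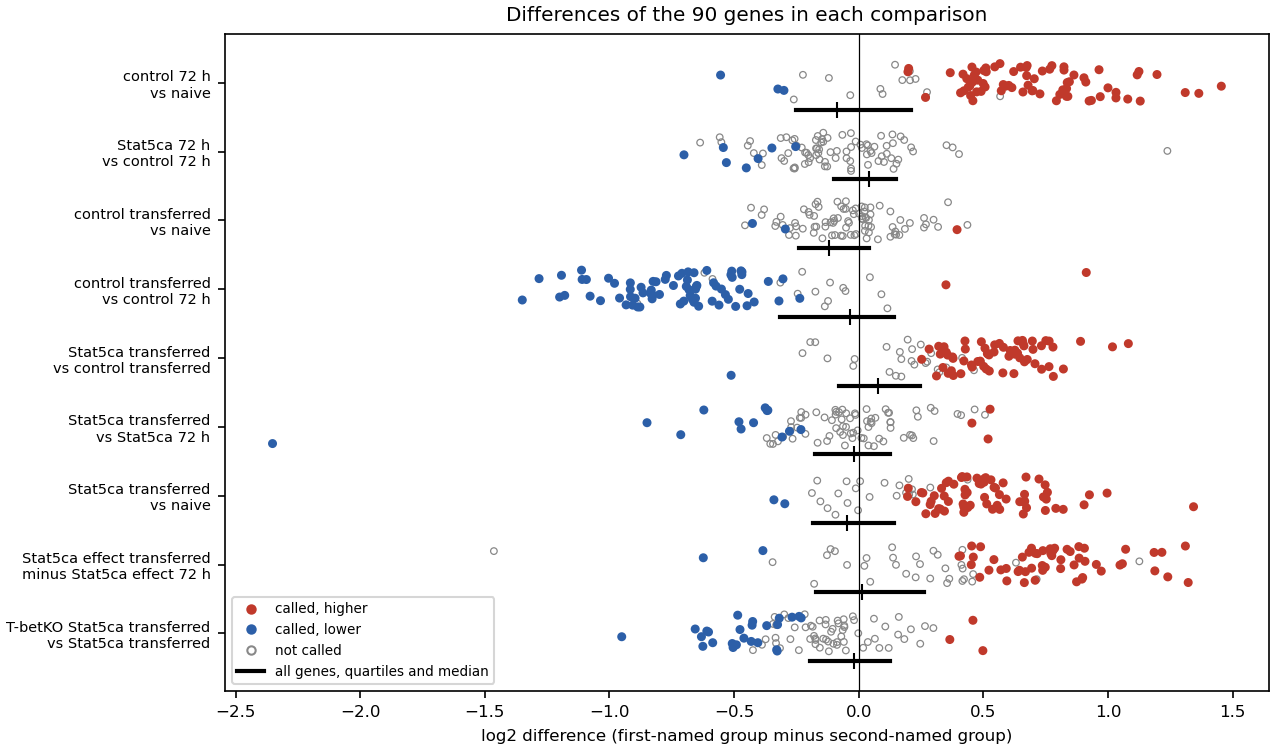
Log2 differences of the 90 genes in the 9 comparisons, each the first-named group minus the second-named group. Red points are called higher, blue points called lower and open points not called, and the black bar and tick below each row give the quartiles and median of all 19938 genes.

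Against naive cells, transferred Stat5ca cells were higher for 66 genes and lower for 2, with a median log2 difference of 0.42. Over all genes 15.8% were called higher and 12.7% lower (28.6% in either direction). Among bright genes 23.7% were called higher and 13.6% lower. All 10 ubiquitous subunits of complex IV and all 17 of complex V were called higher, but only 2 of 4 of complex II. Atp5md differed by 1.34 ± 0.19 (adjusted p = 0.000126), Cox6a1 by 0.996 ± 0.12 (adjusted p = 2.00e-05) and Atp5pb, a stalk subunit of the ATP synthase, by 0.93 ± 0.14 (adjusted p = 0.000237). Sdha was 11.23 to 11.45 in transferred Stat5ca cells and 11.47 to 11.69 in naive cells, below every naive array, without passing the test (-0.19 ± 0.07, adjusted p = 0.0659). The 2 genes called lower were Cox8c, a testis form, at -0.34 ± 0.11 (adjusted p = 0.0248), and Cox8b at -0.30 ± 0.08 (adjusted p = 0.0119). Cox8b lay at 7.01 to 7.27 in transferred Stat5ca cells and 7.28 to 7.62 in naive cells, and counted from 7.30 its difference was -0.14. The call of Cox8c was lost without Stat5ca array 12 or 14 or naive array 33 or 36 (adjusted p = 0.0679 to 0.0903).

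Stat5ca cells after transfer were also compared with Stat5ca cells at 72 h. There were 3 higher and 13 lower calls among the 90 genes, against 8.61% and 12.7% of all genes (21.3% in either direction), and a median log2 difference of -0.06. The share of lower calls was thus near that of all genes. With array weights 10 were higher and 29 lower, and with these groups alone in the fit 8 and 22. Calls over all 19938 genes rose as well, from 4243 to 6790 with array weights and to 6267 with these groups alone. Cox6b2 had 7.61, 7.36, 7.39 and 7.57 in transferred Stat5ca cells, against 10.07 and 9.60 at 72 h. It fell by 2.35 on the log2 scale (SE 0.38, adjusted p = 0.000432), the widest gap of any gene in the set, and ended near 7.30. Ndufaf3, an assembly factor of complex I, fell by 0.85 (adjusted p = 0.00171) and the supercomplex factor Cox7a2l by 0.71 (adjusted p = 0.00440). Cox7a2l was at 9.73, 9.87, 10.00 and 9.71 after transfer and at 10.52 and 10.57 at 72 h, with no overlap.

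Uqcrq was higher after transfer by 0.53 ± 0.11 (adjusted p = 0.00295), Atp5g1, which encodes the rotor ring subunit of the ATP synthase, by 0.52 ± 0.11 (adjusted p = 0.00247) and Ndufaf4 by 0.45 ± 0.12 (adjusted p = 0.0156). Ndufaf4, Atp5g1, Cox7a2l and Ndufaf3 lost their calls without Stat5ca array 10 (adjusted p = 0.0555 to 0.160), and Ndufaf4 also without array 9 (adjusted p = 0.0552). In all, 7 genes were called without array 9 and 3 without array 10. Macrophage markers were higher after transfer for all 17 genes, 13 of them called. With their mean as a covariate 7 genes of the set were called.

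The Stat5ca difference after transfer was next set against the Stat5ca difference at 72 h, as an interaction in the same fit. It uses the same arrays as the comparisons within each time, so it is no independent evidence of either. For 55 of the 90 genes it was more positive after transfer, and for 2 more negative, with a median of 0.63. Of all genes 12.3% were called more positive and 5.48% more negative (17.8% in all), with a median of 0.01. Among bright genes 18.5% were called more positive and 6.95% more negative, with a median of 0.09. More positive calls covered 21 of 34 subunits of complex I, 2 of 4 of complex II, 6 of 9 of complex III, 7 of 10 of complex IV and 14 of 17 of complex V.

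Ndufb6 had the largest value. Its Stat5ca difference was 0.76 after transfer and -0.56 at 72 h, and the difference between them was 1.32 ± 0.26 (adjusted p = 0.00265). For Atp5md the Stat5ca difference was 1.08 after transfer and -0.23 at 72 h (1.31 ± 0.33, adjusted p = 0.0138). For Cox6a1 it was 0.70 after transfer and -0.54 at 72 h (1.24 ± 0.20, adjusted p = 0.000843). These genes had negative values at 72 h and positive ones after transfer, but at 72 h only that of Cox6a1 was called. Cox7a2 (0.73 after transfer, -0.45 at 72 h, 1.18 ± 0.16 between them) and Uqcrq (0.66, -0.53 and 1.19 ± 0.16) had the same signs. Ndufs7 had equally small Stat5ca differences at both times, 0.12 after transfer and 0.10 at 72 h, and an interaction of 0.02 ± 0.11 (adjusted p = 0.939).

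The 2 genes with a more negative difference were the isoforms Cox6a2 (-0.62 ± 0.19, adjusted p = 0.0310) and Cox4i2 (-0.38 ± 0.12, adjusted p = 0.0416). Of 22 other fits, 10 lost the call of Cox6a2 and 14 that of Cox4i2, among them those without control array 30 or 32 or Stat5ca array 9 or 10 (adjusted p = 0.0563 to 0.166). The call of Atp5md was lost without control array 30 (1.26, adjusted p = 0.0516) or Stat5ca array 10 (1.31, adjusted p = 0.0545). Without transferred control array 30 or 32, 39 and 36 genes were called, and 36 and 35 without Stat5ca array 9 or 10. T-cell identity markers were called more positive for 4 of 11 genes, with a median of 0.43. Macrophage markers were called more positive for 1 of 17, but 11 of 17 values were below 0, with a median of -0.76. With the macrophage mean as a covariate 59 genes of the set were called more positive. All 5 neutrophil markers were below 0, with a median of -1.85, though none was called. Of 9 B cell markers 3 were called more negative, and of 3 NK cell markers 1 was called more positive. The part of the T-cell, neutrophil, B cell and NK cell markers in the result was not tested.

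**Figure D5:**
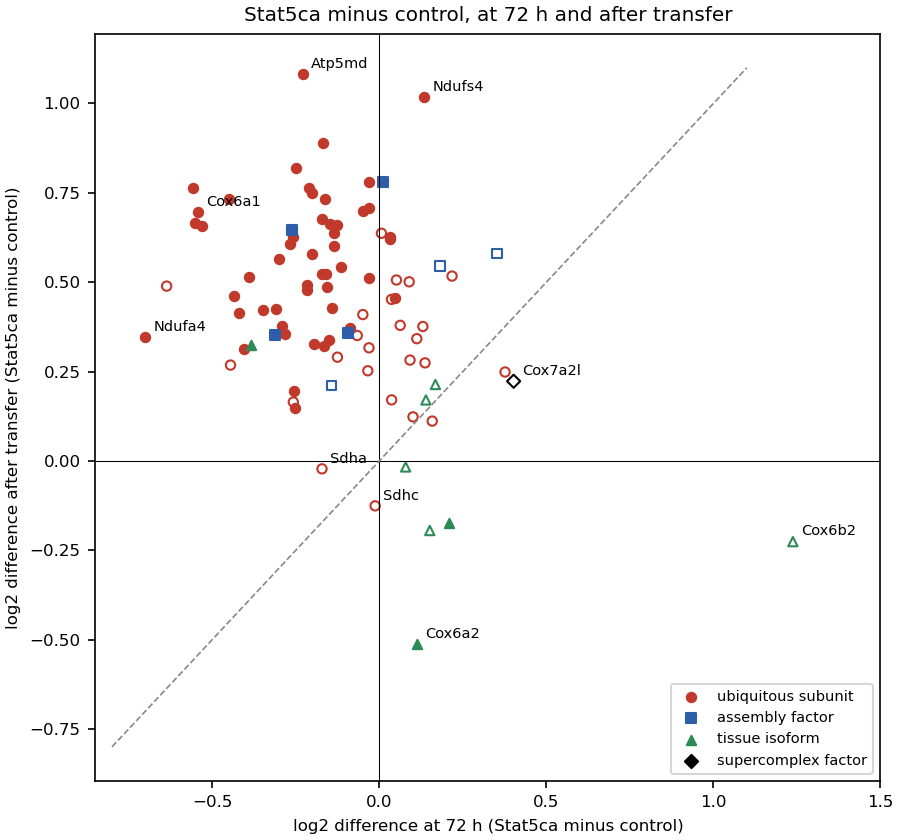
Stat5ca minus control log2 difference of each of the 90 genes after transfer (y axis) against the same difference at 72 h (x axis). Filled symbols are genes whose differences were called unequal, the dashed line marks equal differences, and most ubiquitous subunits lie above it and left of 0.

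T-betKO Stat5ca cells were lower than TCRP1A Stat5ca cells after transfer for 25 genes and higher for 3, with a median log2 difference of -0.18. Over all genes 13.8% were called lower and 7.03% higher (20.8% in either direction), with a median of -0.02. Among bright genes 20.6% were called lower and 7.85% higher, with a median of -0.09, closer to the 27.8% called lower in the set. Lower calls covered 11 of 34 subunits of complex I, 3 of 9 of complex III, 3 of 10 of complex IV, 3 of 17 of complex V and 5 of 7 assembly factors. No subunit of complex II was called lower, and none was at an unadjusted p under 0.05. Stat5a itself differed by -0.75 ± 0.11 in this comparison (adjusted p = 0.00033), and its part in the result was not tested.

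Ndufs4 had 11.07, 10.86 and 10.94 in T-betKO Stat5ca cells, against 11.77, 11.83, 12.14 and 11.91 in TCRP1A Stat5ca cells. It fell by 0.95 on the log2 scale (SE 0.12, adjusted p = 9.48e-05), and this call held in all 18 other fits. All 3 T-betKO arrays were alike for Ndufs4, on day 14 and day 54. Cox6a1 had 11.42, 11.21 and 10.70 in T-betKO cells and 11.60 to 11.87 in TCRP1A cells (-0.66 ± 0.15, adjusted p = 0.00717). Atp5md had 11.75, 11.38 and 11.40 in T-betKO cells and 11.87 to 12.34 in TCRP1A cells (-0.63 ± 0.20, adjusted p = 0.0370). For Cox6a1 the day 54 array was the lowest, and for Atp5md the call was lost without T-betKO array 40 or 41 or Stat5ca array 12, 13 or 14 (adjusted p = 0.0658 to 0.148). Uqcrb, a small subunit of complex III, fell by 0.63 (adjusted p = 0.00440).

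Of the assembly factors, Ndufaf1 was at 8.64, 8.64 and 8.51 in T-betKO cells, against 8.95, 9.07, 9.10 and 9.28 in TCRP1A cells (-0.50 ± 0.14, adjusted p = 0.0188). Ndufaf4 fell by 0.49 (adjusted p = 0.00474) and Ndufaf5 by 0.49 (adjusted p = 0.00996). The call of Ndufaf1 was lost without T-betKO array 40 (adjusted p = 0.0595) or Stat5ca array 14 (adjusted p = 0.0580).

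Higher calls in T-betKO cells went to Cox6a2, Sdhc and Cox4i2. Sdhc had 11.46, 11.50 and 10.92 in T-betKO cells, against 10.92, 10.86, 10.76 and 10.81 in TCRP1A cells, so the day 54 array lay with the TCRP1A cells. Its difference of 0.46 ± 0.12 (adjusted p = 0.0116) was 0.08 without the 2 day 14 arrays (adjusted p = 0.804). Cox6a2 had a like pattern, with 9.74, 9.64 and 9.11 in T-betKO cells and a difference of 0.50 ± 0.14 (adjusted p = 0.0205) that was 0.11 without the day 14 arrays (adjusted p = 0.808). Cox4i2 differed by 0.37 ± 0.09 (adjusted p = 0.00726), and by 0.17 without them (adjusted p = 0.476). The day 14 arrays had macrophage marker means of 12.66 and 12.59 and RNA integrity numbers of 7 and 6, against 11.07 and 8 on day 54 and 10.13 to 10.97 with 8 or 9 in TCRP1A Stat5ca cells. Of 11 T-cell identity markers, 5 were called lower and 1 higher in T-betKO cells, with a median log2 difference of -0.43. Of 9 B cell markers 4 were called higher, and of 3 NK cell markers 1 was called lower. All 5 neutrophil markers had positive differences, with a median of 1.37, though none was called. The part of these marker differences in the result was not tested. Without the day 14 arrays 11 genes were called, all lower, and the median difference was -0.29. With the RNA integrity number as a covariate, 15 genes were called lower, and with the macrophage mean 22 lower and 1 higher.

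Other genes of the same route moved in some of these comparisons. Of 38 measured assembly factors outside the set, 24 were higher and 1 lower in control cells at 72 h than in naive cells, and 20 were higher in transferred Stat5ca cells than in transferred controls. Of all genes, 22.0% were higher and 24.9% lower in the comparison at 72 h, and 16.9% were higher in the comparison after transfer. Cox17, a copper chaperone for complex IV, differed by 1.09 ± 0.13 (adjusted p = 1.27e-05) and 0.78 ± 0.16 (adjusted p = 0.00311) in these 2 comparisons. Of 23 genes of the citric acid cycle and pyruvate entry, 15 and 10 were higher, among them fumarase (Fh1, 1.37 ± 0.09, adjusted p = 2.85e-08) at 72 h and Idh3a (0.74 ± 0.14, adjusted p = 0.00177) after transfer. Of 24 electron carriers and shuttles, 16 and 7 were higher in the same 2 comparisons.

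Of 22 regulators of mitochondrial DNA and of mitochondrial genes, 7 were higher and 8 lower in control cells at 72 h than in naive cells, against 22.0% and 24.9% of all genes. In transferred Stat5ca cells 11 of 22 were higher than in controls, against 16.9% of all genes. Tfam, which packages and transcribes mitochondrial DNA, averaged 9.00 ± 0.25 in transferred Stat5ca cells (SD, n = 4) and 8.10 ± 0.01 in transferred controls (n = 2), a log2 difference of 0.91 ± 0.18 (adjusted p = 0.00238). Myc, a growth regulator, differed by 1.08 ± 0.16 (adjusted p = 0.000271). In T-betKO Stat5ca cells 9 of 22 were lower than in TCRP1A Stat5ca cells, against 13.8% of all genes, with differences of -1.02 for Tfam (adjusted p = 0.00137) and -1.06 for Tfb1m, a mitochondrial ribosomal RNA methyltransferase (adjusted p = 0.000575).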

How the data were processed

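Signals of 19 arrays were deposited by the authors as log2 values per probe set, made with Affymetrix Expression Console per the submitters' processing notes. The log2 scale was read from the range of values, 3.13 to 14.94. For the software version, summarisation and normalization, the sources used here give nothing. Array medians lay between 7.69 and 7.89, and no further scaling was applied. Of 35557 probe sets, 21789 named 1 gene, 1621 several and 12147 none, and the brightest per gene gave 19938 genes. Depth has no meaning for arrays, and their number limits the precision.

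Groups came from the labels. The 16 TCRP1A arrays were fitted together with limma 3.58.1 (R 4.3.3; lmFit and eBayes) for 8 comparisons, and all 19 for the T-betKO comparison. P-values were Benjamini-Hochberg adjusted over all genes, with a threshold of 0.05, and the fit was tested on simulated data. Tables and figures used Python 3.11.15, pandas 2.3.3, numpy 2.4.6 and matplotlib 3.10.9. Members, marker and pathway lists and tests were chosen with earlier results of these data known. Genes named were a catalogue of well-known subunits and, per comparison, the 3 called genes with the most positive and most negative difference. Pathway genes were up to 3 called per list. Uqcr10, Ndufs6, Ndufaf1, Ndufaf4 and Ndufaf5, where outside that rule, were chosen after their values were seen. Alternatives covered scaling, probe sets, dim genes, array weights, covariates and left-out arrays. Probe sets naming several genes were not used here.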

Additional observations from a re-analysis of the deposited data

Results flagged for a closer look

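In 5 of 189 group values tested, 1 array stood apart from the others of its group, and chance flags about 1 group in 20. Control array 3 at 72 h was highest for Cox8b (7.24) and lowest for Sdhb (11.25). Transferred Stat5ca array 11 was lowest for Ndufaf6 (7.30) and array 13 highest for Ndufs1 (10.00). Naive array 33 was lowest for the complex II mean (10.63).

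The Stat5ca difference after transfer, minus that at 72 h, was called more positive for 55 genes and more negative for 2, tested as an interaction in limma. Of 55 named genes, 29 were among them. In complex V the log2 values were 0.72 for Atp5a1, 0.40 for Atp5b, 0.69 for Atp5c1, 0.75 for Atp5e, 0.90 for Atp5k, 1.31 for Atp5md and 0.97 for Atp5o. In complex IV they were 0.86 for Cox4i1, 0.45 for Cox5b, 1.24 for Cox6a1, 1.07 for Cox6b1, 0.49 for Cox6c, 1.18 for Cox7a2, 1.05 for Ndufa4 and 0.71 for the muscle form Cox7a1, against -0.38 for Cox4i2 and -0.62 for Cox6a2. In complex III they were 0.71 for Cyc1, 0.64 for Uqcrb, 0.59 for Uqcrc1 and 0.77 for Uqcrfs1. In complex II they were 0.91 for Sdhb and 0.52 for Sdhd. In complex I they were 0.66 for Ndufab1, 1.32 for Ndufb6, 0.84 for Ndufs1, 0.74 for Ndufs3, 0.64 for Ndufv1 and 0.57 for Ndufv2.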

How the results depend on the processing

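Counts of called genes in either direction are given here. Calls over all 19938 genes moved with the settings too, so a changed count is not particular to the set. With array weights they went from 1140 to 4604 for Stat5ca against control cells at 72 h. For transferred Stat5ca cells against 72 h they went from 4243 to 6790. The rise in control cells at 72 h over naive cells kept its size in all alternatives run (70 to 78 called, 73 to 78 leaving out single arrays), and so did the fall after transfer (63 to 77 leaving out single arrays). Stat5ca against control cells at 72 h, with 7 called, gave 27 with array weights, 4 with those groups alone in the fit, 0 with look-alike arrays averaged and 0 to 13 leaving out single arrays. Transferred controls against naive cells, with 3 called, gave 7 after quantile normalization, 6 without dim genes, 0 with the groups alone, with RNA integrity or with the macrophage mean as a covariate and with look-alike arrays averaged, 11 without naive arrays 34 and 36, 1 without 33 and 35 and 0 to 8 leaving out single arrays. Transferred Stat5ca against transferred control cells gave 38 to 62 leaving out single arrays. Transferred Stat5ca cells against 72 h, with 16 called, gave 39 with array weights, 30 with the groups alone, 7 with the macrophage mean and 3 to 15 leaving out single arrays. Transferred Stat5ca against naive cells, with 68 called, gave 43 with look-alike arrays averaged and 61 to 69 leaving out single arrays. The interaction gave 35 to 57 leaving out single arrays. T-betKO Stat5ca against TCRP1A Stat5ca cells, with 28 called, gave 15 with RNA integrity, 9 with look-alike arrays averaged, 11 without T-betKO arrays 39 and 40 and 15 to 29 leaving out single arrays. Averaging look-alike arrays and leaving out the day 14 arrays were chosen after seeing the data. Where an arm was left with 1 array, it was assumed to vary like the other groups. No named gene changed sign while called. No paired analysis was possible because the groups share no replicate numbers.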
